A study of Mus musculus with 19 samples.

Results

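The genes described here are the chaperones and stress regulators of the heat shock response and the unfolded protein response, in the hippocampus of an amyloid mouse model fed ibuprofen. The list held 36 genes chosen by symbol, and 33 of them had a probe set carrying that symbol alone, out of 19938 genes read in this way on the array. They were 7 cytosolic chaperones and co-chaperones, 2 mitochondrial chaperones, 14 folding factors of the endoplasmic reticulum (ER), 3 genes of ER-associated degradation and 7 regulators. Hspa1b, Hsp90ab1 and Hsf1 were not analysed here.

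RNA came from mice of the C57BL/6J strain at 6 months of age. APP-PS1 mice (APPSwe-PS1deltaE9 in the labels) carry transgenes for a mutant amyloid precursor protein and a presenilin 1 that lacks an exon, and they were compared with wild-type littermates. From month 3 to month 6 the mice ate chow with 375 ppm ibuprofen, an inhibitor of the cyclooxygenases, or the same chow without it. There were 4 arrays of wild-type mice on control chow and 5 arrays in each of the other 3 groups (wild-type on ibuprofen, APP-PS1 on control chow, APP-PS1 on ibuprofen). Nothing in the labels says that each array is 1 animal, so p-values measure only the spread between these arrays.

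Cells answer unfolded protein in each compartment with a separate program. In the cytosol, heat shock factor 1 is released from chaperones and binds heat shock elements, repeats of GAA and its complement, in the promoters of Hspa1a, Dnajb1, Hsph1 and others, and the same factor acts on the mitochondrial chaperonin pair Hspd1 and Hspe1. In the ER, the sensors Ern1 (IRE1), Eif2ak3 (PERK) and Atf6 respond through spliced Xbp1, through translation of Atf4 and through cleaved Atf6, which binds the ER stress element. Much of this signalling is splicing, cleavage or phosphorylation, which an array of whole transcripts does not read.

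Promoters are shown first, because the elements just named can be looked for in them directly. RefSeq windows of 300 bases (250 before and 50 after the start of the transcript, GRCm38.p6) were found for 29 of the genes on the list, with Hspa1b among them. The ER stress element, searched on both strands as CCAAT, 9 free bases and CCACG, stood in the windows of 8 of the 29 (27.6%) against 37 of 27025 genes (0.137%). It was in 7 of 12 ER folding factors with a window, in 1 of 3 degradation genes and in none of 6 cytosolic, 2 mitochondrial and 6 regulator genes. Each match is given 5′ to 3′ in the direction of the element, with the fixed bases in capitals, to show how far the spacer differs.
Hspa5, chr2:34772025-34772043, plus strand: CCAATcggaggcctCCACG
Hsp90b1, chr10:86705533-86705551, plus strand: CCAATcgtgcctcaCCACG
Hsp90b1, chr10:86705638-86705656, minus strand: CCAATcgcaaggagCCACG
Calr, chr8:84847075-84847093, plus strand: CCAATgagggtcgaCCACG
Canx, chr11:50325800-50325818, minus strand: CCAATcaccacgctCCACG
Pdia6, chr12:17266491-17266509, plus strand: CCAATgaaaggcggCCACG
Dnajc3, chr14:118937827-118937845, plus strand: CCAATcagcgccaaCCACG
Creld2, chr15:88819520-88819538, minus strand: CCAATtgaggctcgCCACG
Syvn1, chr19:6046532-6046550, plus strand: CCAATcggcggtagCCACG

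The window of Hspa5, the gene of the ER chaperone BiP, is printed whole because this gene is the standard readout of the response. Its element (capitals) began 65 bases before the start of the transcript, on the plus strand of chr2:34771840-34772139.
Hspa5: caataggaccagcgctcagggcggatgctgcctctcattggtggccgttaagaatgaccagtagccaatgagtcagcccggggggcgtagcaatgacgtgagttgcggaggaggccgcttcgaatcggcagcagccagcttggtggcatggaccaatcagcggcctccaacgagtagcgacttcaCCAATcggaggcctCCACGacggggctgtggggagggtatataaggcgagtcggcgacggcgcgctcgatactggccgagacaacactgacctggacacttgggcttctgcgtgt

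The heat shock element, searched on both strands as GAA, TTC and GAA with 2 free bases between each, stood in 3 of the 29 windows (10.3%) against 0.662% of all genes. They were those of Hsph1 and of Hspd1 and Hspe1, which lie head to head and share 1 promoter, so these matches are the same bases read from both genes. The shared window, in the direction of Hspe1 (chr1:55087898-55088197, plus strand), shows 2 overlapping matches in capitals, 1 on each strand.
Hspe1 and Hspd1: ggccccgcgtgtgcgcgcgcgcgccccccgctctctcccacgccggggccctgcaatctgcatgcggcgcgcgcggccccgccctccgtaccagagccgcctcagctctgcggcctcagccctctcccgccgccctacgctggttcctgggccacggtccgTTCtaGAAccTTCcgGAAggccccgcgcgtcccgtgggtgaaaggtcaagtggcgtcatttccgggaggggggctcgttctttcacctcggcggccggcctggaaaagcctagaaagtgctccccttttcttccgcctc
Hsph1, chr5:149636288-149636300, plus strand: GAActTTCcaGAA

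The core of the amino acid response element, TTGCATCA on both strands, which binds Atf4, stood only in the window of Herpud1 (3.45% of 29, against 1.03% of all genes). The core TGACGTGG, bound by spliced Xbp1 and Atf6, stood in 0 of 29, against 0.714% of all genes. CCAAT, which is also part of the ER stress element, was in all 12 ER folding factors with a window and in 23 of the 29 (79.3%), against 41.1% of all genes. A match is a run of letters in a window and no test of binding.

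The labels held for the transgenes: App values were 13.16 to 13.40 on the 9 wild-type arrays and 13.55 to 13.64 on the 10 APP-PS1 arrays. Whether the probe set tells the human transgene from mouse App was not tested. All 8 hippocampal neuron markers, Camk2a and Prox1 among them, had means above the median of all genes. Values are log2 summaries per probe set. Their medians over all probe sets were 8.06 to 8.14, but over named genes wild-type ibuprofen replicate 5 had 8.91, wild-type ibuprofen replicate 1 had 8.75 and APP-PS1 control replicate 1 had 8.75, against 8.62 to 8.68 on the other 16. These 3 arrays stand apart, and results that rest on them are given with and without them. Markers of the choroid plexus, a tissue that borders the hippocampus, had marker means of -0.97 to 1.66 around their average over arrays.

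No gene of the list passed the test in any of the 7 comparisons (limma, Benjamini-Hochberg adjusted p under 0.05 over all genes). Few genes passed in all. It was 2 (0.01%) for genotype on control chow, 54 (0.271%) for genotype on ibuprofen chow and 5 (0.0251%) for genotype averaged over diets. It was 0 (0%) for ibuprofen in either genotype, for its average and for the interaction of genotype and ibuprofen. At an unadjusted p under 0.05, 4 of the 33 were higher and 0 lower in APP-PS1 mice on control chow, where 4.8% and 1.07% of all genes were. On ibuprofen chow 4 were higher and 3 lower (6.25% and 18.2% of all genes). Ibuprofen gave 5 higher and 0 lower in wild-type mice (9.08% and 1.95%) and 0 higher and 1 lower in APP-PS1 mice (1.82% and 4.66%). The interaction, the difference between the effects of ibuprofen in APP-PS1 and in wild-type mice, gave 0 higher and 6 lower (4.5% and 16%). Genotype averaged over diets gave 4 higher and 0 lower (2.34% and 5.36%), and ibuprofen averaged over genotypes gave 0 in each direction (1.27% and 0.466%).

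**Figure D1:**
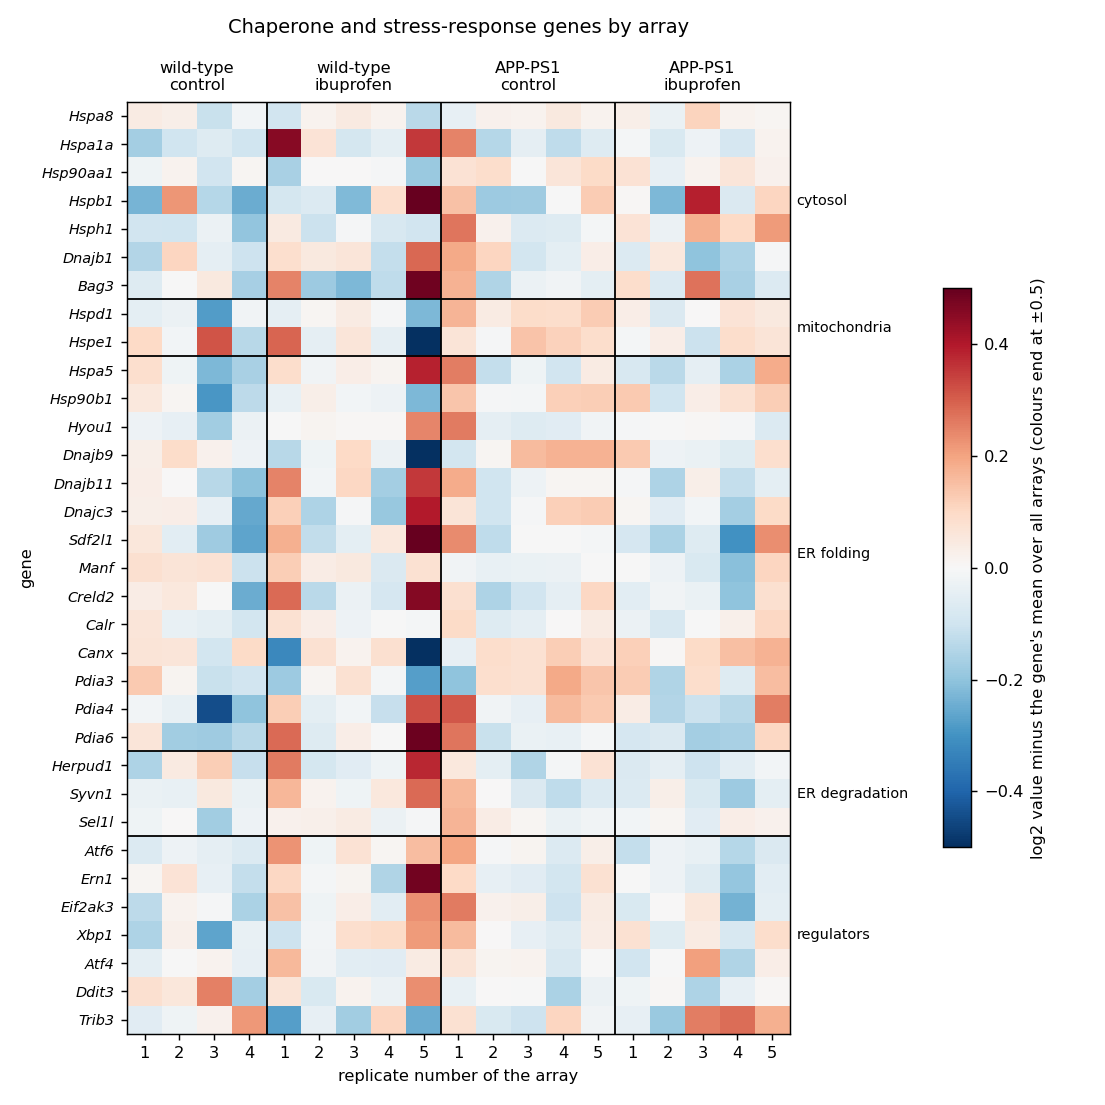
Each row is 1 of the 33 genes and each column 1 of the 19 arrays, grouped by genotype and chow. Colour is the log2 value minus the gene's mean over all arrays (red higher, blue lower), and wild-type ibuprofen replicate 5 is the highest array for 14 genes and the lowest for 6.

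Single arrays often held the extreme value of a gene. Wild-type ibuprofen replicate 5 was the highest of the 19 arrays for 14 of the 33 genes (42.4%), among them Hspa5, Sdf2l1, Pdia4, Pdia6, Creld2, Ern1 and Xbp1, and the lowest for 6 (18.2%), among them Hspa8, Hspe1 and Canx. The same array was the highest for 40% of all genes and the lowest for 11.2%. Wild-type control replicate 3 was the lowest for 8 genes (24.2%, against 10.6% of all genes), which were Hspd1, Hspa5, Hsp90b1, Hyou1, Pdia4, Pdia6, Sel1l and Xbp1. Wild-type control replicate 4 was the lowest for 7 genes (21.2%, against 3.97% of all genes), which were Hspb1, Hsph1, Dnajb11, Dnajc3, Creld2, Calr and Ddit3. APP-PS1 ibuprofen replicate 4 was also the lowest for 7 genes (21.2%, against 13.5% of all genes). They were Sdf2l1, Manf, Syvn1 and 4 of the 7 regulators (Atf6, Ern1, Eif2ak3 and Atf4).

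The fitted genotype difference on control chow was above 0 for 29 of the 33 genes and had a median of 0.08, against 0.02 over all genes. On ibuprofen chow it was -0.06 with 10 above 0, against -0.05. Ibuprofen gave 0.09 in wild-type mice with 25 above 0, against 0.05, and -0.03 in APP-PS1 mice with 7 above 0, against -0.02. Without the 3 arrays that stand apart, the same 4 medians were 0.05, -0.00, 0.04 and -0.00, against -0.00, 0.00, 0.00 and -0.00 over all genes. With all arrays kept but dim genes left out, the medians over all genes were 0.03, -0.07, 0.07 and -0.04 in the same order. Against these, the list was no longer the lower on ibuprofen chow or for ibuprofen in APP-PS1 mice. The comparisons share arrays: the wild-type control arrays enter both genotype on control chow and ibuprofen in wild-type mice, and both differences are taken against them.

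**Figure D2:**
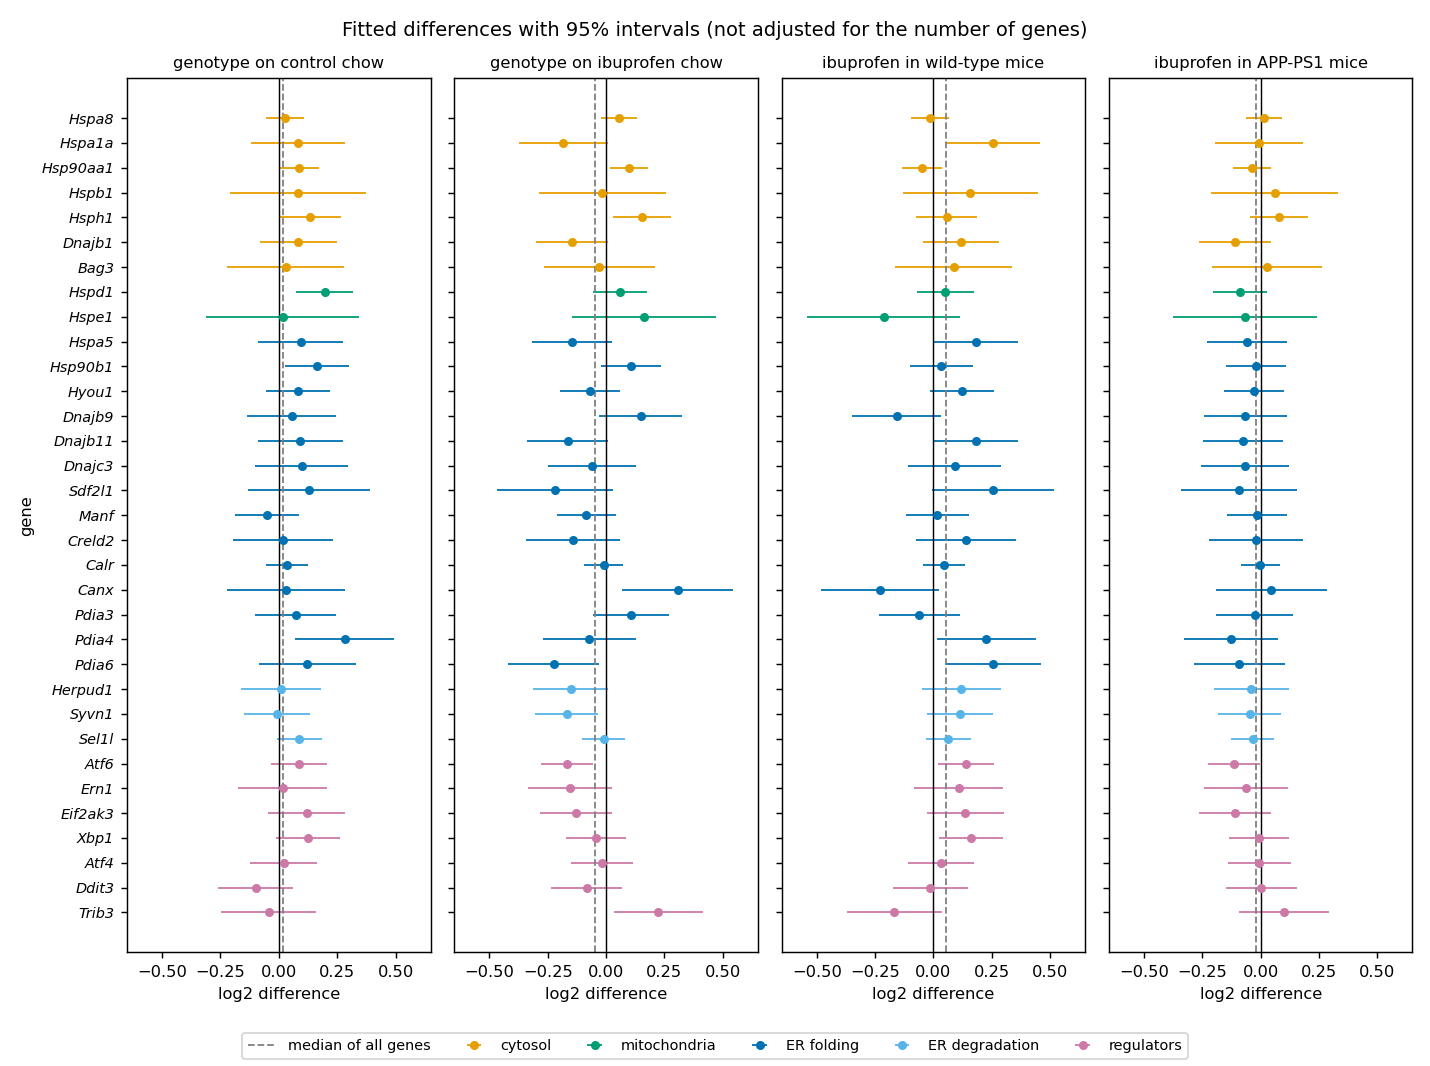
Points are fitted log2 differences of the 33 genes in the 4 comparisons of 2 groups, coloured by compartment, and bars are 95% intervals from limma before any adjustment. The dashed line is the median of all genes, and no gene passed at an adjusted p of 0.05.

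Heat shock genes such as Hspa8, Hsp90aa1, Hspb1, Hspd1 and Hspe1 have near-identical copies elsewhere in the genome, and which copy each probe set reads was not tested, so the values of these 5 are uncertain as levels of 1 gene. Among the cytosolic chaperones, Hsph1 had the smallest p of the list for genotype averaged over diets. Hsph1 makes a nucleotide exchange factor of the Hsp70 family. Its log2 values were 11.44, 11.44, 11.51 and 11.34 in wild-type mice on control chow and 11.58, 11.43, 11.53, 11.46 and 11.44 in wild-type mice on ibuprofen. They were 11.80, 11.56, 11.47, 11.47 and 11.53 for APP-PS1 on control chow and 11.61, 11.51, 11.72, 11.64 and 11.75 in APP-PS1 mice on ibuprofen. On each diet all 5 APP-PS1 arrays lay above the wild-type mean, though the groups overlapped. The difference was 0.13 ± 0.06 (SE) on control chow, 0.16 ± 0.06 on ibuprofen chow and 0.15 ± 0.04 on average (95% interval 0.05 to 0.24, adjusted p = 0.377). Without the 3 arrays that stand apart the average was 0.12 ± 0.04 (adjusted p = 0.263) and the control chow difference 0.08 ± 0.05.

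Hsp90aa1 makes the inducible cytosolic Hsp90. Its values were 12.94, 12.98, 12.86 and 12.97 in wild-type mice on control chow and 12.80, 12.96, 12.96, 12.95 and 12.77 on ibuprofen. For the APP-PS1 genotype the values were 13.03, 13.05, 12.96, 13.02 and 13.05 (control chow) and 13.03, 12.92, 12.98, 13.02 and 12.98 (ibuprofen). All 5 APP-PS1 arrays lay above the wild-type mean on each diet, with overlap. The averaged genotype difference was 0.09 ± 0.03 (95% interval 0.03 to 0.15, adjusted p = 0.41), and 0.06 ± 0.02 without the 3 arrays (adjusted p = 0.445). The other 2 probe sets of Hsp90aa1 gave 0.08 and 0.13.

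Hspa8, the constitutive Hsc70 that serves synaptic vesicle uncoating, had the narrowest range of the cytosolic genes. It had 13.70, 13.69, 13.55 and 13.65 in wild-type mice on control chow and 13.57, 13.68, 13.71, 13.68 and 13.53 on ibuprofen. APP-PS1 values were 13.62, 13.68, 13.68, 13.71 and 13.68 on control chow and 13.69, 13.63, 13.78, 13.68 and 13.67 on ibuprofen. The interval of the genotype difference was -0.05 to 0.11 on control chow and -0.02 to 0.13 on ibuprofen chow.

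Hspa1a, the stress-inducible Hsp70, had the smallest p of the list for ibuprofen in wild-type mice. Its values were 9.19, 9.26, 9.30 and 9.27 on control chow and 9.82, 9.43, 9.28, 9.32 and 9.72 on ibuprofen, where replicates 1 and 5 lay highest. With the transgenes, the control chow arrays had 9.61, 9.22, 9.32, 9.24 and 9.30 and the ibuprofen arrays 9.35, 9.29, 9.34, 9.28 and 9.38. The wild-type difference was 0.26 ± 0.10 (95% interval 0.06 to 0.46, adjusted p = 0.432), and without the 3 arrays 0.09 ± 0.05 (adjusted p = 0.999). The 3 arrays left out are also the 3 highest values of this gene. Hspa1b has no probe set with its symbol alone, and whether the probe set of Hspa1a also reads Hspa1b was not tested.

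Dnajb1 makes the Hsp40 that hands clients to Hspa1a. Its values were 9.92, 10.18, 10.03 and 9.97 in wild-type mice on control chow and 10.15, 10.12, 10.13, 9.95 and 10.36 on ibuprofen. The APP-PS1 arrays had 10.26, 10.18, 9.98, 10.02 and 10.10 with control chow and 10.004, 10.12, 9.87, 9.92 and 10.07 with ibuprofen. Ibuprofen gave -0.11 ± 0.07 in APP-PS1 mice and 0.12 ± 0.08 in wild-type mice, and the interaction was -0.23 (95% interval -0.46 to -0.01, adjusted p = 0.239). The 3 values were, without the 3 arrays, -0.07 ± 0.06, 0.04 ± 0.07 and -0.12 ± 0.10, and without wild-type ibuprofen replicate 5 alone the wild-type difference was 0.06 ± 0.07. The small heat shock protein Hspb1 and the co-chaperone Bag3 were the most variable of the cytosolic genes, with Hspb1 at 9.09 to 9.92 over the 19 arrays and Bag3 at 8.57 to 9.28, and intervals of the 4 comparisons that all included 0.

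In the mitochondria, Hspd1 (the chaperonin Hsp60) had the smallest p of the list for genotype on control chow, while the groups of Hspe1 (its lid, Hsp10) overlapped. Hspd1 values were 11.24, 11.26, 11.01 and 11.27 in wild-type mice and 11.46, 11.33, 11.38, 11.38 and 11.42 in APP-PS1 mice on control chow. On ibuprofen they were 11.24, 11.30, 11.33, 11.28 and 11.06 in wild-type mice and 11.32, 11.22, 11.29, 11.36 and 11.34 in APP-PS1 mice. On control chow every APP-PS1 array lay above every wild-type array, as for 2.94% of all genes (0.903% lay below in the same way). That difference was 0.20 ± 0.06 (95% interval 0.08 to 0.32, adjusted p = 0.762), and 0.18 ± 0.05 without the 3 arrays. Wild-type control replicate 3 was low, and leaving it out gave 0.14. On ibuprofen chow the difference was 0.06 ± 0.06, but 0.01 ± 0.05 without wild-type ibuprofen replicate 5 and -0.00 ± 0.05 without the 3 arrays. A second probe set of Hspd1 gave 0.29 on control chow and -0.10 on ibuprofen chow, so the probe sets differ in sign in the second case. Ibuprofen in APP-PS1 mice gave -0.09 ± 0.06 (adjusted p = 0.716) with overlapping groups. On the second probe set it gave -0.19, and every ibuprofen array lay below every control array, as for 2.27% of all genes.

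Hspe1 had 11.18, 11.07, 11.39 and 10.94 in wild-type mice on control chow and 11.37, 11.04, 11.14, 11.04 and 10.08 on ibuprofen. For the APP-PS1 genotype the values were 11.14, 11.08, 11.22, 11.20 and 11.17 (control chow) and 11.07, 11.12, 10.97, 11.17 and 11.15 (ibuprofen). The value of 10.08, on wild-type ibuprofen replicate 5, was the lowest of all arrays. The ibuprofen difference in wild-type mice was -0.21 ± 0.16 (95% interval -0.54 to 0.11). Without the 3 arrays that difference was -0.07 ± 0.08. The copy limit given with the cytosolic genes holds for both.

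**Figure D3:**
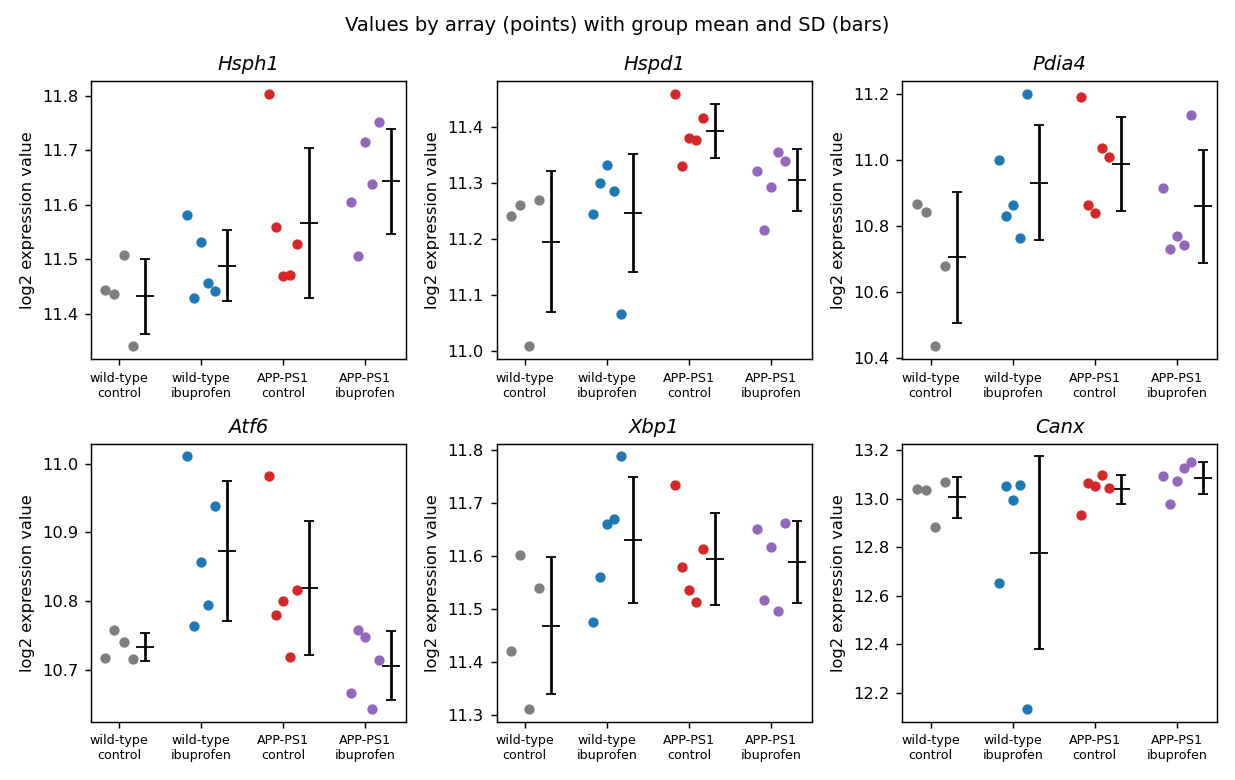
Log2 values of 6 genes on each array (points) with the mean and SD of each group (bars). The axis does not start at 0 and differs between panels, and Hspd1 in APP-PS1 mice on control chow lies above all 4 wild-type control arrays.

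Of the 14 ER folding factors, 13 were above 0 for genotype on control chow with a median of 0.09, and 10 were below 0 on ibuprofen chow with a median of -0.07. Ibuprofen gave 11 above 0 in wild-type mice (median 0.11) and 13 below 0 in APP-PS1 mice (median -0.04). Without the 3 arrays these 4 medians were 0.06, 0.00, 0.05 and -0.02. The cytosolic medians in the same 4 comparisons were 0.08, -0.02, 0.09 and 0.01, or 0.04, 0.03, 0.04 and 0.06 without the 3 arrays, and no test of compartments against each other was made. Of all genes, 57.9% were above 0 for genotype on control chow, 37.8% on ibuprofen chow, 66.8% for ibuprofen in wild-type mice and 41.8% in APP-PS1 mice. Markers of oligodendrocytes were above 0 for 9, 1, 11 and 1 of 11 in these 4 comparisons and for 0 of 11 in the interaction, and those of astrocytes for 7, 4, 8 and 3 of 8 and for 1 of 8, with none passing. No gene of the list passed when the mean of the oligodendrocyte markers was a covariate.

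Hspa5 had 11.99, 11.89, 11.68 and 11.75 in wild-type mice on control chow and 12.00, 11.89, 11.94, 11.92 and 12.30 on ibuprofen. APP-PS1 values were 12.16, 11.79, 11.89, 11.82 and 11.95 on control chow and 11.83, 11.77, 11.87, 11.75 and 12.09 on ibuprofen. The 4 groups overlapped. The difference for genotype was 0.09 ± 0.09 on control chow and -0.15 ± 0.08 on ibuprofen chow, and 0.03 ± 0.07 and -0.06 ± 0.07 without the 3 arrays. Without wild-type ibuprofen replicate 5 alone, the second was -0.08 ± 0.07. For ibuprofen in wild-type mice it was 0.18 ± 0.09 (adjusted p = 0.432), and 0.09 ± 0.07 without the 3 arrays.

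Hsp90b1 (GRP94, the ER Hsp90, which folds integrins and Toll-like receptors) had genotype differences above 0 on both diets. Its values were 11.94, 11.89, 11.60 and 11.76 in wild-type mice on control chow and 11.85, 11.91, 11.87, 11.86 and 11.66 on ibuprofen. With the transgenes, the control chow arrays had 12.02, 11.88, 11.88, 12.00 and 12.01 and the ibuprofen arrays 12.02, 11.79, 11.92, 11.96 and 12.01. The difference was 0.16 ± 0.07 on control chow (adjusted p = 0.806), 0.11 ± 0.06 on ibuprofen chow and 0.13 ± 0.05 on average (adjusted p = 0.438). Without wild-type control replicate 3, the lowest array, the control chow difference was 0.10. The difference on ibuprofen chow was 0.06 ± 0.06 without wild-type ibuprofen replicate 5, and 0.06 ± 0.07 without the 3 arrays.

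Among the disulfide isomerases, Pdia4 (ERp72) had the largest genotype difference on control chow, in a gene with wide spread. Its values were 10.87, 10.84, 10.44 and 10.68 in wild-type mice on control chow and 11.002, 10.83, 10.87, 10.76 and 11.20 on ibuprofen. The APP-PS1 arrays had 11.19, 10.86, 10.84, 11.04 and 11.01 with control chow and 10.92, 10.73, 10.77, 10.74 and 11.14 with ibuprofen. The genotype difference was 0.28 ± 0.10 on control chow (95% interval 0.07 to 0.49, adjusted p = 0.797) and -0.07 ± 0.10 on ibuprofen chow. On ibuprofen chow it was -0.00 ± 0.09 without wild-type ibuprofen replicate 5 and turned to 0.04 ± 0.10 without the 3 arrays. The control chow difference ran from 0.19 (without wild-type control replicate 3) to 0.34 (without wild-type control replicate 1) over single arrays left out. Under other settings it lay between 0.10 and 0.29. The interaction was -0.35 (95% interval -0.65 to -0.06, adjusted p = 0.212), and -0.19 ± 0.13 without the 3 arrays. A dimmer probe set of Pdia4 gave -0.07 for genotype on control chow, the opposite sign.

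Pdia6 (P5) had 9.97, 9.74, 9.74 and 9.78 in wild-type mice on control chow and 10.20, 9.85, 9.95, 9.91 and 10.40 on ibuprofen. For the APP-PS1 genotype the values were 10.18, 9.80, 9.88, 9.87 and 9.90 (control chow) and 9.83, 9.84, 9.74, 9.75 and 10.02 (ibuprofen). The highest values were on wild-type ibuprofen replicates 5 and 1. Ibuprofen gave 0.25 ± 0.10 in wild-type mice (adjusted p = 0.432) and 0.10 ± 0.07 without the 3 arrays, and the interaction was -0.35 (adjusted p = 0.212), or -0.12 ± 0.09 without them. Its genotype difference on ibuprofen chow was -0.22 ± 0.09 (adjusted p = 0.17), and -0.06 ± 0.06 without them. Pdia3, the isomerase that works with calnexin on glycoproteins, had intervals that included 0 in all 4 comparisons.

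Canx and Calr make the lectin chaperones calnexin and calreticulin. Canx had 13.04, 13.03, 12.88 and 13.07 in wild-type mice on control chow and 12.65, 13.05, 12.99, 13.06 and 12.13 on ibuprofen. APP-PS1 values were 12.93, 13.06, 13.05, 13.10 and 13.04 on control chow and 13.09, 12.98, 13.07, 13.13 and 13.15 on ibuprofen. The genotype difference on ibuprofen chow of 0.31 ± 0.11 (95% interval 0.07 to 0.54, adjusted p = 0.15) came with wild-type ibuprofen replicates 1 and 5 as the lowest arrays of the 19. Without the 3 arrays it was 0.05 ± 0.04. Calr lay between 12.17 and 12.37 on all arrays, with intervals that included 0 throughout.

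Dnajb9 (ERdj4), a co-chaperone of BiP and a target of spliced Xbp1, had 11.16, 11.22, 11.16 and 11.11 in wild-type mice on control chow and 10.99, 11.11, 11.23, 11.10 and 10.58 on ibuprofen. With the transgenes, the control chow arrays had 11.04, 11.14, 11.29, 11.31 and 11.31 and the ibuprofen arrays 11.26, 11.11, 11.10, 11.07 and 11.22. Ibuprofen averaged over genotypes gave -0.11 ± 0.06 (adjusted p = 1), and -0.06 ± 0.04 both without wild-type ibuprofen replicate 5 and without the 3 arrays. Hyou1, an Hsp70 of the ER lumen, was 1 of 2 genes in which every wild-type array on ibuprofen lay above every wild-type control array (1.94% of all genes did), with 0.12 ± 0.07 (adjusted p = 0.433), and 0.08 ± 0.04 without the 3 arrays. Sdf2l1, a partner of BiP and Dnajb11, gave 0.25 ± 0.13 in the same comparison and 0.07 ± 0.10 without them. Dnajb11, Dnajc3, Creld2 and Manf, the other secretory pathway members, had intervals that included 0 in the 4 comparisons, although that of Dnajb11 in wild-type mice on ibuprofen began at -0.00 and its interaction was -0.26 ± 0.12 (adjusted p = 0.238), or -0.08 ± 0.09 without the 3 arrays.

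Of the degradation genes, Syvn1 makes the membrane ubiquitin ligase HRD1, Sel1l its partner, and Herpud1 a scaffold that is induced early. Syvn1 had 9.97, 9.96, 10.05 and 9.96 in wild-type mice on control chow and 10.16, 10.02, 9.97, 10.05 and 10.28 on ibuprofen. The APP-PS1 arrays had 10.16, 9.998, 9.93, 9.87 and 9.93 with control chow and 9.93, 10.03, 9.92, 9.82 and 9.95 with ibuprofen. All 5 APP-PS1 arrays on ibuprofen lay below the wild-type mean, and the difference was -0.17 ± 0.06 (95% interval -0.30 to -0.03, adjusted p = 0.152), or -0.09 ± 0.05 without the 3 arrays. Herpud1 gave -0.15 ± 0.08 in the same comparison, -0.08 ± 0.07 without wild-type ibuprofen replicate 5 alone and -0.00 ± 0.06 without the 3 arrays. Sel1l gave -0.01 ± 0.04.

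Among the regulators, Atf6, the membrane-bound factor cut in the Golgi, had the smallest p of the whole list on ibuprofen chow and for the interaction. Its values were 10.72, 10.76, 10.74 and 10.72 in wild-type mice on control chow and 11.01, 10.76, 10.86, 10.80 and 10.94 on ibuprofen. For the APP-PS1 genotype the values were 10.98, 10.78, 10.80, 10.72 and 10.82 (control chow) and 10.67, 10.76, 10.75, 10.64 and 10.71 (ibuprofen). On ibuprofen chow every APP-PS1 array lay below every wild-type array, as for 2.06% of all genes, and in wild-type mice every ibuprofen array lay above every control array. Both pairs of groups meet at 10.76, so the gaps are smaller than the second decimal.

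The genotype difference of Atf6 on ibuprofen chow was -0.17 ± 0.05 (95% interval -0.28 to -0.06, adjusted p = 0.133), and -0.10 ± 0.04 without the 3 arrays (adjusted p = 0.398). On the probe sets used, ibuprofen in APP-PS1 mice left all 33 genes with overlapping groups. Of all genes, 0.507% lay fully above and 2.27% fully below. For Atf6 ibuprofen gave -0.11 ± 0.05 in these mice (adjusted p = 0.716), or -0.07 ± 0.04 without the 3 arrays. In wild-type mice it gave 0.14 ± 0.06 (adjusted p = 0.432), and 0.07 ± 0.04 without the 3 arrays. The interaction was -0.25 ± 0.08 (95% interval -0.42 to -0.09, adjusted p = 0.208), and -0.15 ± 0.05 without the 3 arrays (adjusted p = 0.495). Over all genes the median interaction was -0.07, or -0.11 with dim genes left out.

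Xbp1, which spliced makes the factor of the IRE1 branch, was read here without regard to splicing. It had 11.42, 11.60, 11.31 and 11.54 in wild-type mice on control chow and 11.47, 11.56, 11.66, 11.67 and 11.79 on ibuprofen. APP-PS1 values were 11.73, 11.58, 11.54, 11.51 and 11.61 on control chow and 11.65, 11.52, 11.62, 11.50 and 11.66 on ibuprofen. The ibuprofen difference in wild-type mice was 0.16 ± 0.07 (95% interval 0.03 to 0.30, adjusted p = 0.432), and 0.16 ± 0.06 without the 3 arrays. Without wild-type ibuprofen replicate 5 alone it was 0.12 ± 0.06. Over single arrays left out it ran from 0.11 (without wild-type control replicate 3) to 0.21 (without wild-type control replicate 2). On ibuprofen chow all 5 APP-PS1 arrays lay below the wild-type mean for the sensors Ern1 (-0.16 ± 0.09) and Eif2ak3 (-0.13 ± 0.07), and without the 3 arrays these differences were -0.02 ± 0.06 and -0.05 ± 0.06.

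Atf4 is controlled mainly through its translation. It had 9.12, 9.16, 9.18 and 9.13 in wild-type mice on control chow and 9.33, 9.15, 9.11, 9.11 and 9.21 on ibuprofen. With the transgenes, the control chow arrays had 9.23, 9.18, 9.18, 9.09 and 9.16 and the ibuprofen arrays 9.07, 9.16, 9.37, 9.01 and 9.20. Its intervals ran from -0.12 to 0.16 for genotype on control chow and from -0.15 to 0.12 on ibuprofen chow.

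Ddit3 (CHOP), the pro-apoptotic target of Atf4, had 9.17, 9.15, 9.35 and 8.92 in wild-type mice on control chow and 9.16, 9.02, 9.11, 9.06 and 9.33 on ibuprofen. The APP-PS1 arrays had 9.05, 9.09, 9.09, 8.94 and 9.07 with control chow and 9.07, 9.10, 8.94, 9.05 and 9.10 with ibuprofen. All 5 APP-PS1 arrays lay below the wild-type mean on each diet, with -0.10 ± 0.08 (95% interval -0.26 to 0.06) on control chow and -0.08 ± 0.07 on ibuprofen chow, or -0.01 ± 0.07 there without the 3 arrays. Trib3, a target of Atf4 and Ddit3, gave 0.22 ± 0.09 for genotype on ibuprofen chow (adjusted p = 0.167), and 0.13 ± 0.10 without the 3 arrays.

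Pairs of genes with a textbook link were compared over the 19 arrays after each group's mean was subtracted, for 10 pairs, with 2-sided permutation within groups and adjustment over the 10. The paired genes share their array and its normalization. Hspa5 and Sdf2l1 varied together (Pearson r = 0.92, adjusted permutation p = 0.0001; Spearman rho = 0.84, adjusted permutation p = 0.0002), and r was 0.88 without the 2 arrays farthest from the median of Hspa5 and 0.89 without the 3 arrays. The unadjusted permutation p of 1e-05 is the smallest that 100000 permutations can give. Hspa5 and Pdia4 gave r = 0.88 (adjusted permutation p = 0.0002; rho = 0.80, adjusted permutation p = 0.0023), 0.83 without the 2 farthest and 0.83 without the 3 arrays, where the adjusted permutation p of rho was 0.0617.

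Dnajb11 and Creld2 gave r = 0.82 (adjusted permutation p = 0.0027; rho = 0.78, adjusted permutation p = 0.0066), 0.75 without the 2 farthest, and 0.56 without the 3 arrays (adjusted permutation p = 0.0948), so the call rests on those arrays. Hsp90aa1 and Hspa8 gave r = 0.73 (adjusted permutation p = 0.0225) and rho = 0.59 (adjusted permutation p = 0.104). Their r was 0.45 without the 2 farthest (adjusted permutation p = 0.28) and 0.51 without the 3 arrays (adjusted permutation p = 0.267). The mitochondrial pair Hspd1 and Hspe1, despite its shared promoter, gave r = 0.35 (adjusted permutation p = 0.535) and rho = 0.09. For this pair r was -0.11 without the 2 farthest arrays and -0.54 without the 3 arrays (adjusted permutation p = 0.423). The probe sets used for both have the limit given above. Hspa5 and Hsp90b1 gave r = 0.21 (adjusted permutation p = 0.547) and rho = 0.32. Their r was 0.64 without the 2 farthest (adjusted permutation p = 0.114) and 0.66 without the 3 arrays (adjusted permutation p = 0.0958). The other 4 pairs, Dnajb1 with Hsph1, Atf4 with Trib3, Atf4 with Ddit3 and Xbp1 with Dnajb9, gave r of 0.23, -0.15, 0.12 and -0.29, none past the threshold. Without the 2 farthest arrays Atf4 and Ddit3 had rho = 0.58 (adjusted permutation p = 0.0386) with r = 0.45 (adjusted permutation p = 0.151), and without the 3 arrays r was -0.03. Xbp1 with Dnajb9 turned to r = 0.36 without the 3 arrays (adjusted permutation p = 0.267).

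**Figure D4:**
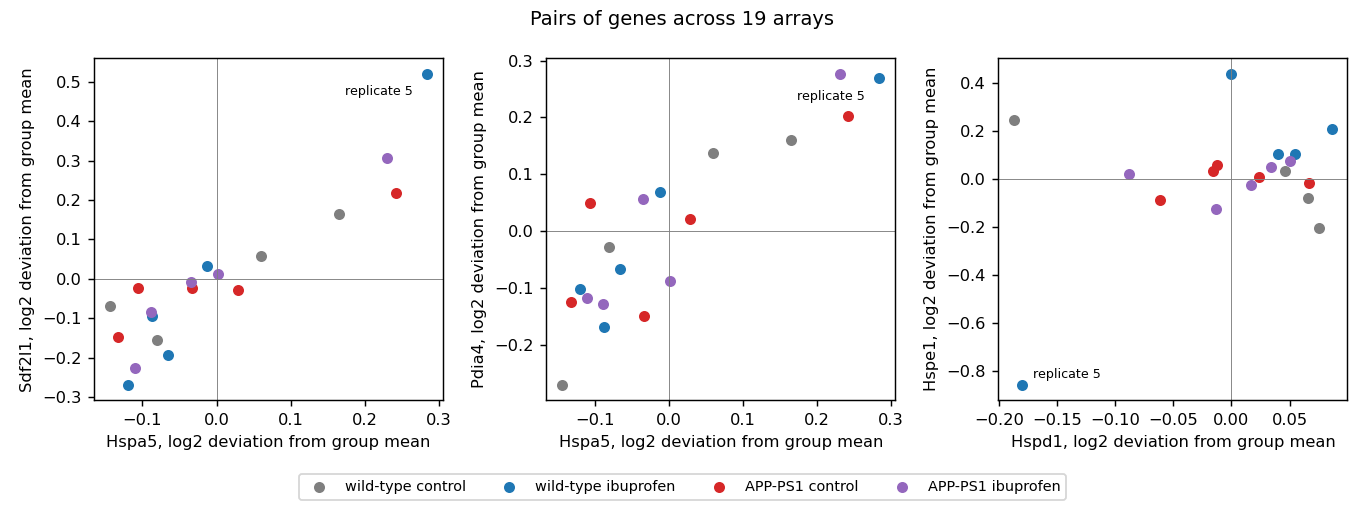
Each point is 1 of 19 arrays, as the log2 deviation of 2 genes from the mean of their group, coloured by group; wild-type ibuprofen replicate 5 is marked. Hspa5 with Sdf2l1 and with Pdia4 line up along a rising line (r = 0.92 and 0.88), and Hspd1 with Hspe1 does not (r = 0.35).

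Choroid plexus markers were tested as well: 15 of 15 measured, of 17 listed, had genotype differences above 0 on control chow (median 0.52) and on ibuprofen chow (median 0.66), with none passing the test, and only 6 of the 15 had means above the median of all genes. Markers of dentate granule cells had a median of -0.29 for genotype on ibuprofen chow, with 3 of 7 passing. These 3 medians, without the 3 arrays, were 0.75, 1.12 and -0.38, and 2 of the 7 granule cell markers passed. The 15 choroid markers belong to 1 tissue and are not independent results. On control chow the group median of their mean was -0.61 in APP-PS1 and -0.60 in wild-type mice, with SDs of 1.19 and 0.73. On ibuprofen chow the group medians were 0.40 and -0.78. In bulk tissue, fewer cells of a type and less RNA per cell cannot be told apart, and the part of the granule cell markers in the results was not tested. The slope of each gene on the mean of the choroid plexus markers, within groups, was fitted over all genes, a test added after seeing the data. Of the 33 genes, 1 passed upward and 0 downward, where 2.08% and 0.00502% of all genes did. It was Dnajc3 (P58IPK, an inhibitor of PERK that also acts as a BiP co-chaperone), which rose by 0.11 ± 0.03 per unit of the marker mean (adjusted p = 0.0334). Pdia4 (0.11, adjusted p = 0.0747) and Sdf2l1 (0.13, adjusted p = 0.0981) came next, and 12 of 14 ER folding factors had slopes above 0 with a median of 0.05, against 0.01 over the cytosolic genes and 0.01 over all genes. Of all 19938 genes, 11647 had slopes above 0. So did 97 of the 131 genes of the wider list described below (median 0.02). Among those 131 were 21 of 23 integrated stress genes (median 0.03) and 24 of 42 cytosolic chaperones (median 0.003). The Dnajc3 call did not hold without the 3 arrays (adjusted p = 0.211), where Pdia3 and Pdia4 passed instead, nor without wild-type ibuprofen replicate 5 alone (0.08, adjusted p = 0.465). Among all 19938 genes, 257 passed without the 3 arrays and 215 without that replicate. Over all alternatives and left-out arrays the adjusted p of Dnajc3 ranged from 0.00342 to 0.791. With the choroid marker mean as a covariate no gene of the list passed in any of the 7 comparisons. The difference of Hspd1 for genotype on control chow was then 0.21, that of Pdia4 0.22, and that of Atf6 for genotype on ibuprofen chow -0.16.

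A wider list of 131 genes was read in the same way: 42 cytosolic chaperones, 33 of ER folding and transport, 17 of degradation, 23 of the integrated stress response and 16 mitochondrial ones. None passed in the 4 comparisons of 2 groups. At an unadjusted p under 0.05, 24 (18.3%) were higher and 0 lower for genotype on control chow, against 4.8% and 1.07% of all genes. On ibuprofen chow 5 (3.82%) were higher and 21 (16%) lower, close to or below the 6.25% and 18.2% of all genes. Ibuprofen gave 20 higher (15.3%, against 9.08%) and 0 lower in wild-type mice, and 1 higher and 9 lower (6.87%, against 4.66%) in APP-PS1 mice. The interaction gave 0 higher and 37 lower (28.2%, against 16%). Without the 3 arrays, 29 were higher and 2 lower for genotype with control chow, and 7 and 8 with ibuprofen chow. For ibuprofen the counts were then 6 and 1 in wild-type mice and 0 and 10 in APP-PS1 mice, and for the interaction 3 and 22. Of all 19938 genes, in the same order, 1179 and 470, 819 and 1166, 461 and 231, 651 and 1155, and 482 and 1354 were higher and lower.

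The 16 other mitochondrial genes of the wider list had 13 differences below 0 for genotype on ibuprofen chow, with a median of -0.14. Hspd1 and Hspe1 were at 0.06 and 0.16, but at 0.01 and -0.05 without wild-type ibuprofen replicate 5. Without the 3 arrays the median of Hspd1 and Hspe1 was 0.01. Of the 16, 9 (56.2%) were lower at an unadjusted p under 0.05, against 18.2% of all genes. Of these 16 genes, 12 were below 0 without the 3 arrays, with a median of -0.04. Only 1 was then lower at that p, where 1166 of all 19938 genes were. In wild-type mice ibuprofen gave 14 of 16 above 0 with a median of 0.12, or 9 of 16 with a median of 0.02 without the 3 arrays.

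Of the wider list, the gene nearest to the threshold was Hspa2, an Hsp70 of the cytosol, at -0.34 ± 0.09 on ibuprofen chow (adjusted p = 0.0726). The mitochondrial protease Lonp1 (-0.29 ± 0.09, adjusted p = 0.13) and the Atf6 paralogue Atf6b (-0.21 ± 0.06, adjusted p = 0.109) also lay below the wild-type mean there on all 5 arrays. These 3 differences, without the 3 arrays, were -0.20 ± 0.07, -0.12 ± 0.05 and -0.16 ± 0.06, in the order named. On control chow the smallest p values of the sublists belonged to Derl2, a retrotranslocation factor (0.23 ± 0.07), Cct8, a subunit of the cytosolic chaperonin (0.18 ± 0.06), Sec61a1, the translocon channel (0.24 ± 0.08), Psat1 of serine synthesis (0.15 ± 0.06) and Yme1l1, a protease of the inner membrane (0.14 ± 0.05), with adjusted p of 0.767 to 0.806. In wild-type mice on ibuprofen they were Sec61a1 (0.23 ± 0.08), Ubxn4 (0.18 ± 0.06), Hspa2 (0.22 ± 0.09), Eif2ak1 (0.14 ± 0.06) and Trap1 (0.16 ± 0.07), all with an adjusted p of 0.432. They were, without the 3 arrays, 0.10 ± 0.06, 0.15 ± 0.06, 0.07 ± 0.08, 0.09 ± 0.06 and 0.06 ± 0.05 in the same order. In APP-PS1 mice on ibuprofen Cct8 (-0.14 ± 0.05), Spcs2 (-0.13 ± 0.05), Derl2 (-0.15 ± 0.07), Atf6b (-0.11 ± 0.06) and Hspa9 (-0.10 ± 0.04) had an adjusted p of 0.716, and of these only Hspa9 moved by over 1.5 times without the 3 arrays, to -0.06 ± 0.03. The remaining 2 smallest for genotype on ibuprofen chow were Txndc11 (-0.16 ± 0.06, adjusted p = 0.16) and Ube2g2 (-0.17 ± 0.08, adjusted p = 0.21), at -0.06 ± 0.04 and -0.02 ± 0.05 without the 3 arrays.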

How the data were processed

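The deposited values are log2 expression per probe set. The submitters' processing notes name RMA and Partek 6.5 for this step, and its settings and a genome build are not given in the sources used here. Of 35556 probe sets, 21789 had 1 gene symbol in an annotation of 2016, 1621 had several and 12146 none. A gene was read from the probe set with its symbol alone and the highest mean over the 19 arrays. No filter on dim genes was applied, and the number of arrays limits the precision.

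All 4 groups were fitted together with limma 3.58.1 (R 4.3.3, trend in the empirical Bayes step, 15 residual degrees of freedom), two-sided, with Benjamini-Hochberg adjustment over 19938 genes and a threshold of 0.05. Errors of differences are standard errors. The fit was tested on simulated data. The genes, lists and pairs were chosen with earlier results of these data known. Array values are given for fixed genes of the pathway and for the 3 genes with the smallest p in each comparison, and of the wider list for the smallest p of each sublist. Alternatives covered normalization, filtering, probe sets, empirical Bayes settings, array weights, covariates and left-out arrays. The main fit did not pair arrays by replicate number. After group means were subtracted, same-numbered arrays of different groups correlated at -0.27 to 0.60 (17 of 27 pairs over 0.1). Arrays with different numbers were not compared in this way, so whether the numbers mark a pairing or a batch was not tested. Results with the number as a block are given below. Figures used Python 3.11.15 and matplotlib 3.10.9.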

Additional observations from a re-analysis of the deposited data

Results flagged for a closer look

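In 16 of 132 gene and group combinations (12.1%), 1 array lay far from the rest of its group by Dixon's test, which chance flags in about 1 of 20. The combinations share arrays and are not independent. The test was run on the list only, so the share over all genes is not known and the excess cannot be read as particular to the list. Most of the 16 were on 3 arrays. APP-PS1 control replicate 1 was high for Hspa1a (9.61), Hsph1 (11.80), Hyou1 (11.08) and Pdia6 (10.18). Wild-type control replicate 3 was low for Hspd1 (11.01), Hyou1 (10.65) and Sel1l (11.31) and high for Syvn1 (10.05). Wild-type ibuprofen replicate 5 was high for Hspa5 (12.30) and Hyou1 (11.07) and low for Hspe1 (10.08) and Hsp90b1 (11.66). The others were Hyou1 on APP-PS1 ibuprofen replicate 5 (10.76, low), Manf on wild-type control replicate 4 (9.07, low), Pdia6 on wild-type control replicate 1 (9.97, high) and Ddit3 on APP-PS1 control replicate 4 (8.94, low).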

How the results depend on the processing

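Under 14 other settings and with each of 19 arrays left out, the count of genes that passed stayed at 0 for genotype on control chow, for ibuprofen in either genotype and on average, and for the interaction. Array weights gave 1 for genotype on ibuprofen chow (Hsph1, adjusted p = 0.00864, over a range of 0.00864 to 0.333 for the smallest adjusted p) and 1 for genotype averaged over diets (Hsph1, adjusted p = 0.0199, range 0.0199 to 0.534). Leaving out wild-type ibuprofen replicate 4 gave 1 on ibuprofen chow (Atf6, -0.19, adjusted p = 0.0495), so leave-outs ranged from 0 to 1. The count over all genes was not taken for that leave-out. Whether 1 of the 33 exceeds the share of all genes there is therefore not known. Array weights moved the median of the 33 genes to 0.015 for genotype on ibuprofen chow, to 0.021 for wild-type mice given ibuprofen and to -0.014 for the interaction. Another quantile normalization moved the interaction median to -0.036. Leaving out the 3 arrays, chosen after seeing the data, moved it to -0.040 and the median on ibuprofen chow to -0.00075, and single leave-outs of the interaction ranged from -0.161 to -0.074, the last without wild-type ibuprofen replicate 5. The slope on choroid markers gave 2 calls with quantile normalization, 3 with array weights, 2 without the 3 arrays and 0 to 4 over leave-outs. Among all 19938 genes, 430, 400 and 257 passed in these settings, and 215 to 474 over leave-outs.

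With the replicate number as a block, the slope gave 0 calls on the list (Dnajc3 0.09, adjusted p = 0.791) and 148 among all genes. No other call of the list changed. Among all genes, 54 passed for genotype on ibuprofen chow, against 128 without dim genes, 91 with robust empirical Bayes, 1004 with array weights, 197 with the block, 5 when those groups were fitted alone and 33 without the 3 arrays or with every probe set tested. For genotype averaged over diets 5 passed, against 342 with array weights, 8 after quantile normalization and without the 3 arrays, and 3 with every probe set tested; on control chow 2 passed, against 8 with array weights and 4 with the block. Fitting the compared groups alone gives no value for the interaction or the averages.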
